A study of Mus musculus with 15 samples.

Results

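The genes described here are 36 genes of the hypoxia response and of glycolysis, chosen by name: oxygen sensors, glucose transporters, glycolytic enzymes and further genes known to be induced when oxygen is low. Of these 36, 34 had a value on the arrays, among 31162 genes tested. Matching by the gene name or the bracketed symbol of the scanner files found 32 of them, and the RefSeq accession found 2 more, Higd1a and Pfkfb4, which the files list under older names. Gapdh and Ankrd37 had no probe of their own. The 34 genes were covered by 51 probes, and the brightest probe in the fibroblast channel stood for each gene.

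The series compared mouse fibroblasts linked to tumours that resist blockade of VEGF with fibroblasts linked to sensitivity. RNA of 5 fibroblast sources was put on 15 Agilent 2-colour arrays, 3 for each source. The resistant sources were TAF-el4, TAF-tib42 and TAF-tib48, and the sensitive sources were TAF-tib6 and NSF, names that the labels do not spell out. Fibroblast RNA carried Cy5 and a commercial pool of mouse RNA, the same on all arrays, carried Cy3, so every value below is a log2 ratio of fibroblast to reference RNA, or a difference between such ratios. The labels give no genotype, strain, age, treatment, passage or oxygen level for any source, nor do they state if replicate arrays used RNA of independent cultures. A p-value between sources thus rests on array-to-array spread only, possibly technical, and each source stands for 1 fibroblast population. In such bulk RNA, fewer cells of a type and less RNA per cell cannot be told apart.

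Cells sense oxygen through prolyl hydroxylases, which mark the HIF alpha subunits for destruction while oxygen is present. When oxygen falls, HIF1 alpha and HIF2 alpha persist, pair with ARNT and bind a short core motif in the promoters and enhancers of genes for glucose uptake, glycolysis, pH control, mitophagy and collagen folding. HIF alpha subunits are controlled mainly as proteins, so the level of Hif1a RNA is not a measure of HIF activity, and fibroblasts also raise glycolysis when they proliferate or are activated.

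The 6 genes with the widest spread over the sources among those with a promoter in the RefSeq table (mouse build GRCm38.p6) were Ero1l (Ero1a in RefSeq), Eno3, Hif1a, Ddit4, Eno2 and Higd1a. The 250 bases before each annotated start are shown, 5′ to 3′ on the gene's strand, so that the motif content of promoters whose genes moved can be read beside the values below. Capitals mark the hypoxia response core, ACGTG or GCGTG, on either strand (CACGT or CACGC where it lies on the other strand).
Ero1l (chr14:45318573-45318822, minus strand): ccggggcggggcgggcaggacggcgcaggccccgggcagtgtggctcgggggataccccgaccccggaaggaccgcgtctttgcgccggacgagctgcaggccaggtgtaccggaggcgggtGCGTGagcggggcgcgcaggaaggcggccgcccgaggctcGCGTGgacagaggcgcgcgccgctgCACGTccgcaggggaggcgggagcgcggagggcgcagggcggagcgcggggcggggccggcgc
Eno3 (chr11:70656926-70657175, plus strand): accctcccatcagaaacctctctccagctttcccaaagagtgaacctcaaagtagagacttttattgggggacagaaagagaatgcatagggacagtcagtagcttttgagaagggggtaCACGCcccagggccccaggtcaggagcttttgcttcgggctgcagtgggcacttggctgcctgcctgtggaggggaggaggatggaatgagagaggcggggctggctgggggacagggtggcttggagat
Hif1a (chr12:73907617-73907866, plus strand): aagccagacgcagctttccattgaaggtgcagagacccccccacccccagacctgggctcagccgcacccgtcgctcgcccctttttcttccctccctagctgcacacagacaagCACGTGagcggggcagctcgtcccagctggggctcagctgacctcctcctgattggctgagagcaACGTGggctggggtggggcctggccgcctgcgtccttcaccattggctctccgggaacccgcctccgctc
Ddit4 (chr10:59951771-59952020, minus strand): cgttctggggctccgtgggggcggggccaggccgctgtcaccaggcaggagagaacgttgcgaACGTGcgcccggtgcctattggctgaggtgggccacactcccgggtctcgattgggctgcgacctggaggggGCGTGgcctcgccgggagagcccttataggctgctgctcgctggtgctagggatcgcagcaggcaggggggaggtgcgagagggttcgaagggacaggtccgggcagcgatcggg
Eno2 (chr6:124769674-124769923, minus strand): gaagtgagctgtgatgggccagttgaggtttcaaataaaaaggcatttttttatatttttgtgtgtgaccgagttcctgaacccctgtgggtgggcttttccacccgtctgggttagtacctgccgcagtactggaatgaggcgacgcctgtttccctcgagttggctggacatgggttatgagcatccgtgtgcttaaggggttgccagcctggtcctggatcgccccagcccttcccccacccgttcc
Higd1a (chr9:121857797-121858046, minus strand): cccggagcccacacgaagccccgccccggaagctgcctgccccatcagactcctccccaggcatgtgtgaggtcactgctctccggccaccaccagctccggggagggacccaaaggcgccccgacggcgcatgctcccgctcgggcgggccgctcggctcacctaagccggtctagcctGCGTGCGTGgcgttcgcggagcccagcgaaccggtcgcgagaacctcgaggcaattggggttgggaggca

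The window of Ero1l held 3 core matches, that of Hif1a 3, those of Ddit4 and Higd1a 2 each, that of Eno3 1 and that of Eno2 0. In Hif1a, 2 of the 3 matches are the overlapping strands of 1 CACGTG, the E-box that other transcription factors also bind. Of the 36 genes, 32 had at least 1 window in the table, and 28 of these 32 (87.5%) held the core in at least 1 window, against 41.5% of all 27025 genes in the table. Counted by window, 80% of 45 windows held it, against 38.6% of 32851. The windows of the 36 genes also had more CpG dinucleotides, with a median of 14 against 6, and the core itself contains one. Gpi1, Tpi1, Eno2 and Car12 held no core in these windows, and Epas1, Slc2a3, Bnip3l and Ndrg1 are not in the table. A match is a description of letters and says nothing about binding.

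All 34 genes were well above background in Cy5 on all 15 arrays. The Cy5 signal of the brighter probe was saturated on 15 of 15 arrays for Aldoa and on 11 of 15 for Ldha. Median Cy5 signal ran from 175 to 286 over the arrays, and 89.6% to 95.8% of probes lay above background. Arrays of 1 source correlated at 0.96 to 0.987, arrays of different sources at 0.839 to 0.948. Slides fell into 3 runs of 5 consecutive slides that cross the sources only in part: NSF and TAF-el4 replicates 1 and 2 in the first, TAF-el4 replicate 3, TAF-tib42 and TAF-tib48 replicate 1 in the second, and TAF-tib48 replicates 2 and 3 and TAF-tib6 in the third. All 10 fibroblast markers were above background in every source. Among other cell types, the background-corrected Cy5 signal summed over 7 endothelial markers was 1458 to 2606 in TAF-tib48, against 558 to 1046 over all arrays of the other sources. Summed over 6 adipocyte markers it was 3783 to 6210 in TAF-el4, 2007 to 2419 in TAF-tib42 and 1430 to 2183 in TAF-tib48, against 3917 to 4490 in TAF-tib6 and 3179 to 4226 in NSF. Such sums, here and below, were not normalized between arrays. Emcn alone had a mean signal of 1271 in TAF-tib48 and Fabp4 of 3431 in TAF-el4, with the offset of 50. Of the endothelial markers, limma called 3 higher and 0 lower (adjusted p under 0.05) in TAF-tib48 against TAF-tib6, and likewise against NSF. Of the adipocyte markers, 1 was higher and 1 lower in TAF-el4 against TAF-tib6, and 2 and 0 against NSF. Whether such cells were present, and their part in the differences below, was not tested.

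No member was called between resistant and sensitive fibroblasts. With each source as 1 value, 3 resistant against 2 sensitive, limma called 0 of the 34 at an adjusted p under 0.05 and found 3 at an unadjusted p under 0.05 (Eno3, Hk2 and Aldoc). Over all genes 1 passed, which is 0.00321% of genes called, all of it in the higher direction (0.00321% higher and 0% lower). The median difference of the 34 was 0.09, with 22 of 34 above 0, against a median near 0 (-0.00189) and 48.9% above 0 for all genes. An exact permutation test of 3 against 2 sources cannot go below p = 0.1. In simulated data the limma test over source means called 0% of 1.2-fold and 48% of 1.5-fold changes, so small differences can go uncalled. The changed genes were drawn from all genes, so these shares were not measured for the members.

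**Figure D1:**
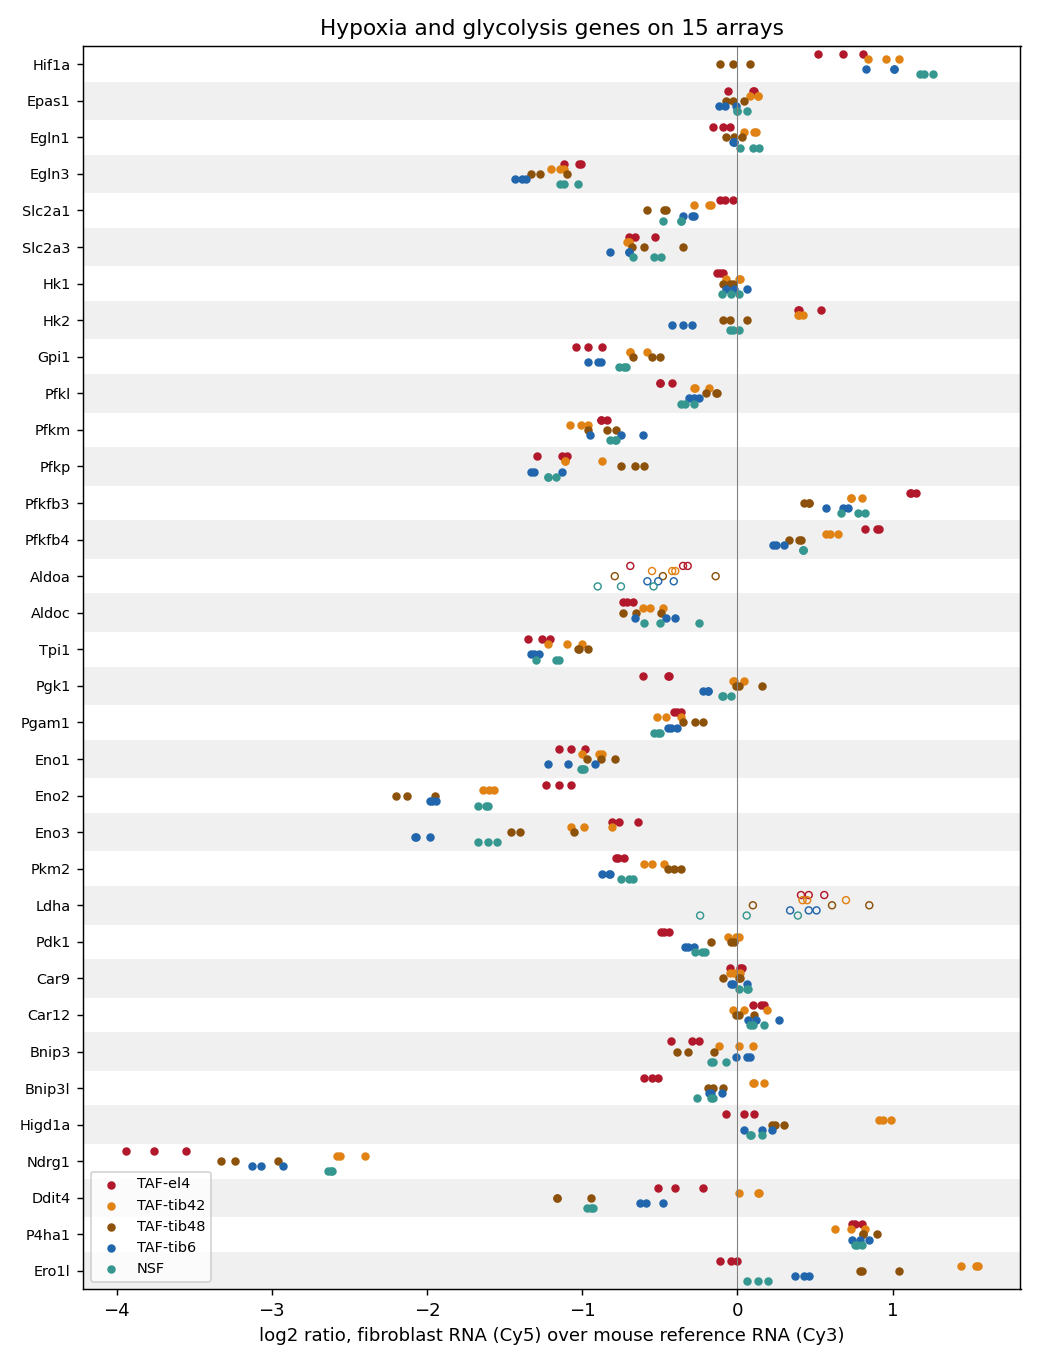
Log2 ratio of fibroblast RNA to reference RNA (x axis) for each of the 34 genes (rows, ordered by role) on the 15 arrays; each point is 1 array, coloured by source, and open points mark Aldoa and Ldha, whose probes were saturated. Ndrg1, Eno3, Ero1l, Hif1a and Ddit4 spread most between sources, whereas Car9, Car12, Hk1 and P4ha1 lie close together.

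The size of the resistant and sensitive difference was greatest for Eno3, the muscle-type enolase, which converts 2-phosphoglycerate to phosphoenolpyruvate. Its ratios were -0.81, -0.76 and -0.64 in TAF-el4, -1.07, -0.99 and -0.81 in TAF-tib42 and -1.40, -1.05 and -1.46 in TAF-tib48, against -2.07, -1.98 and -2.08 in TAF-tib6 and -1.55, -1.67 and -1.61 in NSF. All 9 resistant arrays, from 3 sources, lay above all 6 sensitive ones, from 2 sources. The share of all genes whose arrays separate so was not computed. By source, 13.6% of all genes had all 3 resistant means above both sensitive means. The source means averaged -1.0 ± 0.29 over the resistant and -1.82 ± 0.30 over the sensitive sources (SD, n = 3 and 2). The difference was 0.83 (SE 0.207, 1.78-fold), and limma gave it an adjusted p of 0.365. With the 15 arrays and the source as a random block, limma called 2 of the 34 members, Eno3 (adjusted p = 0.00298) and Hk2 (adjusted p = 0.0187), against 4.69% of all genes, but that fit takes arrays of 1 source as partly independent (estimated correlation 0.403). Of 9 skeletal muscle markers on the arrays, 9 were above background in every source; their summed signal was 11315 to 14867 in TAF-el4, 9520 to 10810 in TAF-tib42 and 7521 to 14582 in TAF-tib48, against 8969 to 9198 in TAF-tib6 and 9724 to 13035 in NSF. Their part in the Eno3 difference was not tested.

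Of the 32 members with an unsaturated probe, 5 (2 above, 3 below) had all 3 resistant means on 1 side of both sensitive means, against 26.6% of all genes (13.6% above and 13% below). Above were Eno3 and the platelet-type phosphofructokinase Pfkp (resistant mean -0.96, sensitive mean -1.23). For Pfkp the TAF-el4 arrays overlapped those of NSF (means -1.17 and -1.20), and a dimmer probe did not carry its TAF-tib48 difference, as given below. Below were Hif1a (0.53 in resistant, 1.08 in sensitive sources), the muscle-type phosphofructokinase Pfkm (-0.91 and -0.78) and the brain-type aldolase Aldoc (-0.63 and -0.48). None of the 5 was called, with adjusted p from 0.365 to 0.664.

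The members differed between the 5 sources more widely than their mean shift shows. The moderated F test of any difference over the sources passed for 25 of 34 (73.5%), against 43% of all genes. The spread of source means, highest minus lowest, was at least 1 log2 unit for 5 of 34 members, against 2.25% of all genes, and its median was 0.41, against 0.16 for all genes. These backgrounds were not matched for brightness. All 34 members were well above background on every array, whereas a tested gene needed this in at least 1 source only. The members were also chosen with earlier results of these data known. The 5 were Ero1l (1.56), Eno3 (1.31), Ndrg1 (1.24), Hif1a (1.23) and Ddit4 (1.18), and for these the source with the highest mean was TAF-tib42 (Ero1l, Ndrg1, Ddit4), TAF-el4 (Eno3) or NSF (Hif1a). At the other end, 10 members had a spread under 0.25. TAF-tib48 had the highest mean for 10 members, TAF-tib42 for 9, TAF-el4 for 8, TAF-tib6 for 4 and NSF for 3.

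**Figure D2:**
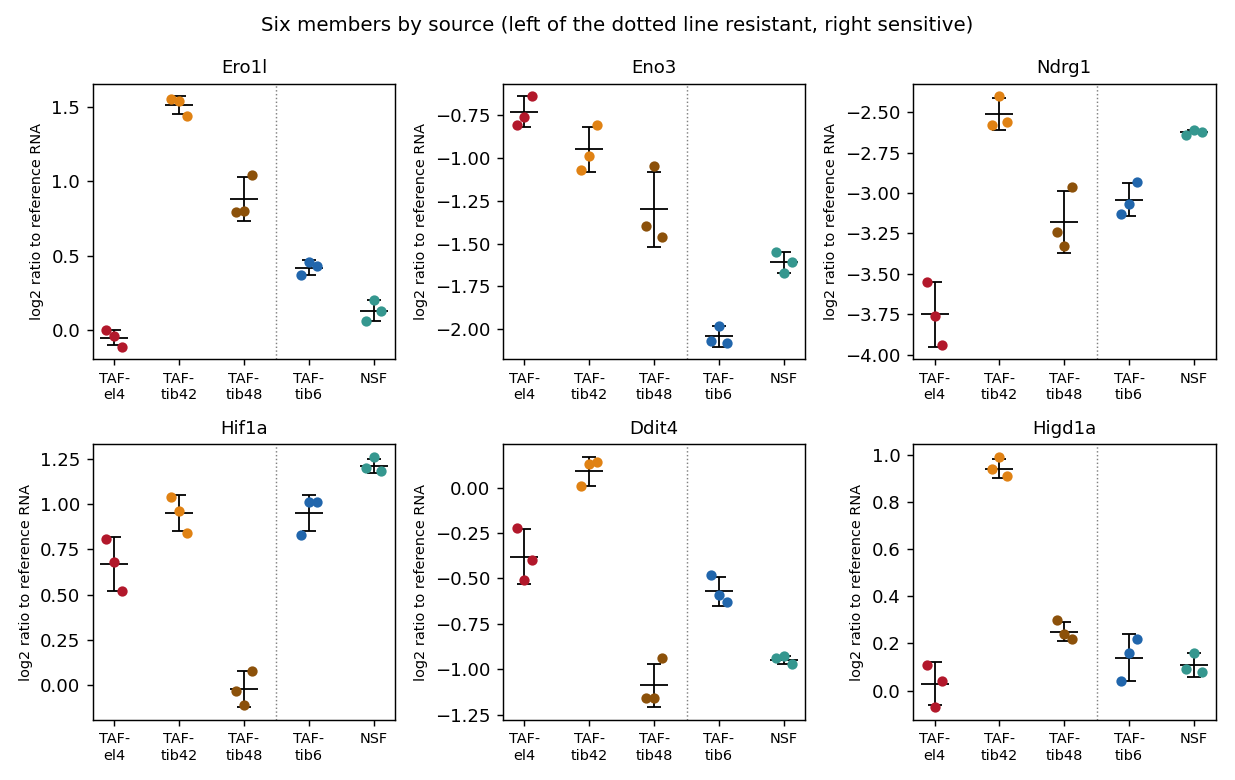
Log2 ratio to reference RNA (y axis, own scale in each panel) of Ero1l, Eno3, Ndrg1, Hif1a, Ddit4 and Higd1a in the 5 sources (x axis); points are the 3 arrays of a source and black bars the mean and SD. Eno3 alone of the 6 has every resistant array above every sensitive one; Ero1l and Higd1a are highest in TAF-tib42, and Hif1a is lowest in TAF-tib48.

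Among the oxygen sensors, Hif1a, the HIF1 alpha subunit, was lowest in TAF-tib48. Its ratios were 0.81, 0.68 and 0.52 in TAF-el4, 1.04, 0.96 and 0.84 in TAF-tib42 and -0.03, -0.11 and 0.08 in TAF-tib48, against 0.83, 1.01 and 1.01 in TAF-tib6 and 1.20, 1.26 and 1.18 in NSF. The TAF-tib48 arrays lay below all 12 others and the NSF arrays above all 12 others. TAF-tib48 differed from TAF-tib6 by -0.97 (SE 0.0725, adjusted p = 1.3e-08) and from NSF by -1.23 (SE 0.0725, adjusted p = 3.3e-10). TAF-el4 differed from NSF by -0.54 (SE 0.0725, adjusted p = 2e-05), and TAF-tib42, whose arrays overlapped those of TAF-tib6, differed from NSF by -0.27 (SE 0.0725, adjusted p = 0.011). The TAF-tib42 difference from NSF was -0.04 with slide run as a block.

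The other sensors moved little. Epas1, the HIF2 alpha subunit, had source means within 0.18 of each other, and its F test passed narrowly (adjusted p = 0.044). Egln1, the main prolyl hydroxylase for HIF, had means within 0.19 of each other and was called in 2 pairs, TAF-el4 against NSF (-0.19) and TAF-el4 against TAF-tib42 (-0.19). Egln3, a hydroxylase that is itself induced by HIF, was lowest in TAF-tib6, with ratios of -1.43, -1.36 and -1.39, and no array of another source was as low. Its ratios were -1.01, -1.02 and -1.12 in TAF-el4, -1.12, -1.14 and -1.20 in TAF-tib42, -1.10, -1.27 and -1.33 in TAF-tib48 and -1.14, -1.03 and -1.12 in NSF. Egln3 in TAF-tib6 differed from NSF by -0.30 (SE 0.0547, adjusted p = 0.0012), a difference that was 0.01 with slide run as a block. Egln3 in TAF-el4 differed from TAF-tib6 by 0.34 (SE 0.0547, adjusted p = 0.00013), against 0.07 (adjusted p = 0.76) with the block.

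For glucose uptake, the hexokinase Hk2 was higher in 2 of 3 resistant sources than in any other. Hk2 traps glucose in the cell as glucose 6-phosphate and binds to mitochondria. Its ratios were 0.40, 0.39 and 0.54 in TAF-el4, 0.39, 0.42 and 0.40 in TAF-tib42 and -0.09, 0.06 and -0.05 in TAF-tib48, against -0.42, -0.35 and -0.29 in TAF-tib6 and -0.05, 0.01 and -0.03 in NSF. TAF-el4 and TAF-tib42 lay above all other arrays, TAF-tib6 below all others, and TAF-tib48 overlapped NSF. Against TAF-tib6 the difference was 0.80 (SE 0.0496, adjusted p = 2.2e-09) in TAF-el4, 0.76 (SE 0.0496, adjusted p = 1.7e-09) in TAF-tib42 and 0.33 (SE 0.0496, adjusted p = 6.3e-05) in TAF-tib48. Against NSF it was 0.46 (SE 0.0496, adjusted p = 1.6e-06) in TAF-el4 and 0.42 (SE 0.0496, adjusted p = 3.5e-06) in TAF-tib42. The housekeeping hexokinase Hk1 had source means within 0.10 of each other and was called in no pair on its brightest probe.

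Slc2a1, the basal glucose transporter GLUT1, was highest in TAF-el4, at -0.08, -0.11 and -0.03. It was -0.18, -0.17 and -0.28 in TAF-tib42 and -0.46, -0.58 and -0.47 in TAF-tib48, against -0.28, -0.35 and -0.29 in TAF-tib6 and -0.48, -0.36 and -0.36 in NSF. The TAF-el4 arrays lay above all others. Slc2a1 in TAF-tib48 differed from TAF-tib6 by -0.20 (SE 0.0484, adjusted p = 0.0047), and in TAF-el4 it differed from TAF-tib42 by 0.14 (SE 0.0484, adjusted p = 0.048). The last call was lost under most other settings, and the first with median centring (-0.17), scaled ratios (-0.15) or the Cy5 channel alone (-0.14). Scaled ratios, here and below, divide each array by a factor from its own median log ratio, which is not a measure of its spread. The transporter Slc2a3 (GLUT3) did not pass the F test (adjusted p = 0.11).

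In upper glycolysis, the 2 regulators that make fructose 2,6-bisphosphate, the activator of phosphofructokinase, were highest in TAF-el4. Pfkfb4 had ratios of 0.90, 0.91 and 0.82 in TAF-el4, 0.57, 0.65 and 0.60 in TAF-tib42 and 0.40, 0.41 and 0.33 in TAF-tib48, against 0.23, 0.25 and 0.30 in TAF-tib6 and 0.42, 0.42 and 0.42 in NSF. It was higher in TAF-el4 than in TAF-tib6 by 0.61 (SE 0.0408, adjusted p = 5.4e-09) and than in NSF by 0.45 (SE 0.0408, adjusted p = 2e-07). Pfkfb3 had ratios of 1.15, 1.12 and 1.11 in TAF-el4, 0.80, 0.73 and 0.73 in TAF-tib42 and 0.46, 0.43 and 0.46 in TAF-tib48, against 0.71, 0.68 and 0.57 in TAF-tib6 and 0.67, 0.78 and 0.82 in NSF.

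Pfkfb3 was thus highest in TAF-el4 and lowest in TAF-tib48 on its brightest probe. TAF-el4 differed from TAF-tib6 by 0.47 (SE 0.0473, adjusted p = 7.1e-07), and TAF-tib48 from NSF by -0.31 (SE 0.0473, adjusted p = 7.9e-05), a call lost with slide run as a block, at -0.27 (adjusted p = 0.15). Its 2 dimmer probes did not carry this pattern. For TAF-tib48 minus NSF they gave 0.05 (adjusted p = 0.46) and 0.20 (adjusted p = 0.032), and the Cy5 channel alone gave 0.18 on the brightest one. For TAF-el4 minus TAF-tib6 they gave 0.06 (adjusted p = 0.44) and 0.00 (adjusted p = 0.99).

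The phosphofructokinase isoforms, which catalyse the committed step, differed in which source was highest or lowest. Pfkp was highest in TAF-tib48, with ratios of -1.13, -1.10 and -1.29 in TAF-el4, -1.11, -0.87 and -1.11 in TAF-tib42 and -0.75, -0.60 and -0.66 in TAF-tib48, against -1.31, -1.13 and -1.33 in TAF-tib6 and -1.17, -1.22 and -1.22 in NSF. The TAF-tib48 arrays lay above all 12 others, and TAF-tib48 differed from TAF-tib6 by 0.59 (SE 0.0688, adjusted p = 3.6e-06) and from NSF by 0.53 (SE 0.0688, adjusted p = 1.1e-05). A dimmer Pfkp probe gave 0.01 (adjusted p = 0.87) and -0.05 (adjusted p = 0.5) for the same 2 differences. Pfkm was lowest in TAF-tib42, with ratios of -0.88, -0.88 and -0.84 in TAF-el4, -0.96, -1.01 and -1.08 in TAF-tib42 and -0.96, -0.84 and -0.78 in TAF-tib48, against -0.95, -0.75 and -0.61 in TAF-tib6 and -0.78, -0.82 and -0.79 in NSF. The TAF-tib42 arrays lay below those of both sensitive sources, and the other resistant arrays overlapped TAF-tib6. The TAF-tib42 difference from TAF-tib6 was -0.25 (SE 0.0656, adjusted p = 0.0093). With slide run as a block that difference was -0.10 (adjusted p = 0.7), and without TAF-tib6 replicate 3 it was -0.17 (adjusted p = 0.065). Pfkl, the liver-type isoform, was lowest in TAF-el4, at -0.42, -0.50 and -0.50, which differed from TAF-tib48 by -0.32 (SE 0.0424, adjusted p = 2e-05).

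The isomerases had their highest mean in TAF-tib48. Gpi1, which turns glucose 6-phosphate into fructose 6-phosphate, had ratios of -0.87, -0.96 and -1.04 in TAF-el4, -0.69, -0.69 and -0.58 in TAF-tib42 and -0.55, -0.67 and -0.50 in TAF-tib48, against -0.90, -0.88 and -0.96 in TAF-tib6 and -0.73, -0.76 and -0.72 in NSF. The TAF-tib48 arrays lay above those of both sensitive sources and overlapped those of TAF-tib42. TAF-tib48 was higher than TAF-tib6 by 0.34 (SE 0.0514, adjusted p = 6.2e-05) and than NSF by 0.16 (SE 0.0514, adjusted p = 0.026). The call against NSF was lost with slide run as a block, at 0.31 (adjusted p = 0.097). Tpi1, which interconverts the 2 triose phosphates, was higher in TAF-tib48 than in TAF-tib6 by 0.30 (SE 0.0548, adjusted p = 0.00042). Of the aldolases, which split fructose 1,6-bisphosphate, Aldoc did not pass the F test (adjusted p = 0.091). Its ratios were -0.74, -0.67 and -0.71 in TAF-el4, -0.56, -0.48 and -0.61 in TAF-tib42 and -0.74, -0.65 and -0.49 in TAF-tib48, against -0.40, -0.66 and -0.46 in TAF-tib6 and -0.60, -0.25 and -0.50 in NSF. The TAF-el4 arrays lay below those of NSF, and TAF-tib42 and TAF-tib48 overlapped both sensitive sources. It was called in 1 pair, TAF-el4 against NSF, with a difference of -0.26 (SE 0.082, adjusted p = 0.037), a call lost with slide run as a block, without any one TAF-el4 array, without NSF replicate 3 and without NSF replicate 2 (-0.15). For Aldoa, the main aldolase, no fold is given, since its dimmer probe was saturated too, on 10 of 15 arrays.

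In lower glycolysis Eno3 and Eno2 had the widest spread of source means. Eno2, the neuron-type enolase, had ratios of -1.07, -1.23 and -1.15 in TAF-el4, -1.57, -1.64 and -1.60 in TAF-tib42 and -2.20, -2.13 and -1.95 in TAF-tib48, against -1.94, -1.97 and -1.98 in TAF-tib6 and -1.62, -1.67 and -1.61 in NSF. The TAF-el4 arrays lay above all 12 others. TAF-el4 differed from TAF-tib6 by 0.81 (SE 0.055, adjusted p = 6.2e-09) and from NSF by 0.48 (SE 0.055, adjusted p = 3.5e-06), while TAF-tib48 differed from NSF in the other direction, by -0.46 (SE 0.055, adjusted p = 4.1e-06). The second Eno2 probe passed in the same 8 pairs with the same signs. The summed signal of 6 neuron and Schwann cell markers on the arrays was 2657 to 3525 in TAF-el4, 2187 to 2620 in TAF-tib42 and 3230 to 5077 in TAF-tib48, against 2605 to 2944 in TAF-tib6 and 2530 to 3474 in NSF, and its part was not tested.

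For Eno3, whose arrays are given above, the difference from TAF-tib6 was 1.31 (SE 0.0849, adjusted p = 3.8e-09) in TAF-el4, 1.09 (SE 0.0849, adjusted p = 1.9e-08) in TAF-tib42 and 0.74 (SE 0.0849, adjusted p = 3e-06) in TAF-tib48. From NSF it was 0.88 (SE 0.0849, adjusted p = 5.2e-07) in TAF-el4, 0.66 (SE 0.0849, adjusted p = 1.2e-05) in TAF-tib42 and 0.31 (SE 0.0849, adjusted p = 0.012) in TAF-tib48. The first of these held with slide run as a block. The TAF-tib42 difference from NSF then had an adjusted p of 0.051 (0.51), and that of TAF-tib48 was 0.07 (adjusted p = 0.88). Without TAF-tib48 replicate 2 the last was 0.18 (adjusted p = 0.073). Eno1, the widely expressed enolase, did not pass the F test (adjusted p = 0.069).

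Pgk1, which makes the first ATP of glycolysis, was lowest in TAF-el4. Its ratios were -0.45, -0.44 and -0.61 in TAF-el4, -0.02, 0.04 and -0.03 in TAF-tib42 and -0.01, 0.01 and 0.16 in TAF-tib48, against -0.22, -0.19 and -0.19 in TAF-tib6 and -0.10, -0.09 and -0.04 in NSF. The TAF-el4 arrays lay below all 12 others, and TAF-el4 differed from NSF by -0.42 (SE 0.0516, adjusted p = 7.2e-06) and from TAF-tib6 by -0.30 (SE 0.0516, adjusted p = 0.00029). With slide run as a block the TAF-tib6 difference was -0.32 (adjusted p = 0.055). Both Pgk1 probes gave the same 6 calls.

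Pkm2, the gene of the muscle-type pyruvate kinase (Pkm in RefSeq; the probe was not assigned to a splice form), was highest in TAF-tib48. Its ratios were -0.77, -0.73 and -0.78 in TAF-el4, -0.55, -0.60 and -0.47 in TAF-tib42 and -0.45, -0.41 and -0.36 in TAF-tib48, against -0.83, -0.87 and -0.82 in TAF-tib6 and -0.75, -0.70 and -0.67 in NSF. TAF-tib48 differed from TAF-tib6 by 0.44 (SE 0.0426, adjusted p = 3.7e-07) and from NSF by 0.30 (SE 0.0426, adjusted p = 3.1e-05), and the NSF difference was 0.17 (adjusted p = 0.078) with median centring and 0.29 (adjusted p = 0.069) with slide run as a block. Pgam1, the phosphoglycerate mutase, had ratios of -0.41, -0.36 and -0.39 in TAF-el4, -0.46, -0.36 and -0.52 in TAF-tib42 and -0.35, -0.22 and -0.27 in TAF-tib48, against -0.39, -0.43 and -0.45 in TAF-tib6 and -0.50, -0.54 and -0.51 in NSF. The TAF-tib48 arrays lay above those of both sensitive sources. It was higher in TAF-tib48 than in NSF by 0.24 (SE 0.0457, adjusted p = 0.00079), and this was 0.08 (adjusted p = 0.42) with median centring and 0.17 (adjusted p = 0.35) with slide run as a block. Gapdh, the textbook glycolytic dehydrogenase between Tpi1 and Pgk1, had no value.

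For the fate of pyruvate, Ldha, which reduces it to lactate, was saturated on its brighter probe, so the unsaturated second probe is given. It had ratios of 0.40, 0.39 and 0.28 in TAF-el4, 0.64, 0.52 and 0.68 in TAF-tib42 and 0.82, 0.72 and 0.74 in TAF-tib48, against 0.29, 0.28 and 0.32 in TAF-tib6 and 0.35, 0.35 and 0.38 in NSF. TAF-tib42 and TAF-tib48 lay above all arrays of the other sources, and TAF-el4 overlapped both sensitive sources. On this probe TAF-tib48 differed from TAF-tib6 by 0.46 (adjusted p = 6e-07) and from NSF by 0.40 (adjusted p = 3.1e-06). TAF-tib42 differed from TAF-tib6 by 0.31 (adjusted p = 5.5e-05) and from NSF by 0.25 (adjusted p = 5e-04).

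Pdk1, a kinase that inhibits pyruvate dehydrogenase and so limits pyruvate's entry to the citric acid cycle, was lowest in TAF-el4. Its ratios were -0.44, -0.47 and -0.49 in TAF-el4, 0.01, -0.06 and -0.01 in TAF-tib42 and -0.04, -0.17 and -0.02 in TAF-tib48, against -0.34, -0.28 and -0.32 in TAF-tib6 and -0.27, -0.21 and -0.23 in NSF. Both TAF-tib42 and TAF-tib48 lay above all other arrays. The difference from TAF-tib6 was -0.15 (SE 0.0433, adjusted p = 0.017) in TAF-el4, 0.30 (SE 0.0433, adjusted p = 4.5e-05) in TAF-tib42 and 0.24 (SE 0.0433, adjusted p = 0.00044) in TAF-tib48. Under the slide run block the first was -0.23 (adjusted p = 0.2) and the second 0.24 (adjusted p = 0.073), so both calls were lost, and the third was 0.22 (adjusted p = 0.0044).

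The pH genes did not pass the F test. Car9 and Car12, membrane carbonic anhydrases that move acid out of hypoxic cells and are widely used as hypoxia markers, had source means within 0.07 and 0.11 of each other (adjusted p = 0.67 and 0.39). The highest and lowest of the 15 arrays were 0.07 and -0.09 for Car9 and 0.27 and -0.03 for Car12.

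Among the mitochondrial genes, Higd1a, an inner membrane protein induced by low oxygen, was highest in TAF-tib42. Its ratios were 0.11, -0.07 and 0.04 in TAF-el4, 0.94, 0.99 and 0.91 in TAF-tib42 and 0.30, 0.24 and 0.22 in TAF-tib48, against 0.04, 0.16 and 0.22 in TAF-tib6 and 0.09, 0.16 and 0.08 in NSF. TAF-tib42 differed from TAF-tib6 by 0.80 (SE 0.0535, adjusted p = 2e-09) and from NSF by 0.83 (SE 0.0535, adjusted p = 1.2e-09). A second, dimmer Higd1a probe was called in none of the 5 pairs, with 0.03 (adjusted p = 0.77) for TAF-tib42 minus TAF-tib6.

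The mitophagy receptors Bnip3 and Bnip3l, which tag mitochondria for removal, were low in TAF-el4. Bnip3l had ratios of -0.55, -0.51 and -0.60 in TAF-el4, 0.17, 0.11 and 0.10 in TAF-tib42 and -0.16, -0.19 and -0.09 in TAF-tib48, against -0.18, -0.17 and -0.10 in TAF-tib6 and -0.26, -0.17 and -0.16 in NSF. TAF-el4 was below and TAF-tib42 above all other arrays. TAF-el4 differed from TAF-tib6 by -0.40 (SE 0.0447, adjusted p = 2.4e-06), and TAF-tib42 from NSF by 0.33 (SE 0.0447, adjusted p = 2.3e-05), for which a dimmer probe gave -0.04 (adjusted p = 0.59). Bnip3 had ratios of -0.25, -0.29 and -0.43 in TAF-el4, 0.01, 0.10 and -0.12 in TAF-tib42 and -0.32, -0.39 and -0.15 in TAF-tib48, against -0.01, 0.06 and 0.08 in TAF-tib6 and -0.16, -0.07 and -0.17 in NSF. The TAF-el4 and TAF-tib48 arrays lay below those of TAF-tib6 and overlapped each other. Its difference from TAF-tib6 was -0.36 (SE 0.066, adjusted p = 0.00047) in TAF-el4 and -0.33 (SE 0.066, adjusted p = 0.0011) in TAF-tib48. The TAF-el4 difference had an adjusted p of 0.082 with slide run as a block.

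Of the stress and secretory genes, Ero1l, the oxidase that makes disulfide bonds in the endoplasmic reticulum, had the widest spread of all members. Its ratios were 0.00, -0.04 and -0.11 in TAF-el4, 1.55, 1.54 and 1.44 in TAF-tib42 and 0.79, 0.80 and 1.04 in TAF-tib48, against 0.37, 0.46 and 0.43 in TAF-tib6 and 0.06, 0.20 and 0.13 in NSF. No 2 sources overlapped. TAF-tib42 differed from NSF by 1.38 (SE 0.062, adjusted p = 8.4e-12), 2.61-fold, and from TAF-tib6 by 1.09 (SE 0.062, adjusted p = 2.5e-10). TAF-tib48 differed from TAF-tib6 by 0.45 (SE 0.062, adjusted p = 2.2e-05) and TAF-el4 by -0.47 (SE 0.062, adjusted p = 1.7e-05). The TAF-el4 call was lost with slide run as a block, at -0.40 (adjusted p = 0.081).

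Ddit4, an inhibitor of mTORC1 induced by low oxygen and by glucocorticoids, ran from high in TAF-tib42 to low in TAF-tib48. Its ratios were -0.22, -0.51 and -0.40 in TAF-el4, 0.01, 0.13 and 0.14 in TAF-tib42 and -1.16, -1.16 and -0.94 in TAF-tib48, against -0.48, -0.59 and -0.63 in TAF-tib6 and -0.94, -0.93 and -0.97 in NSF. TAF-tib42 lay above all other arrays, and TAF-tib48 overlapped NSF. TAF-tib42 differed from NSF by 1.04 (SE 0.0698, adjusted p = 2.2e-09) and from TAF-tib6 by 0.66 (SE 0.0698, adjusted p = 9.9e-07), while TAF-tib48 differed from TAF-tib6 by -0.52 (SE 0.0698, adjusted p = 1.9e-05).

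Ndrg1, a stress-induced gene that rises strongly in hypoxic cells, was far below the reference RNA in all sources and lowest in TAF-el4. Its ratios were -3.55, -3.76 and -3.94 in TAF-el4, -2.58, -2.40 and -2.56 in TAF-tib42 and -3.24, -3.33 and -2.96 in TAF-tib48, against -3.13, -3.07 and -2.93 in TAF-tib6 and -2.64, -2.61 and -2.62 in NSF. The TAF-el4 arrays lay below all 12 others. TAF-el4 differed from NSF by -1.12 (SE 0.0915, adjusted p = 6e-08) and from TAF-tib6 by -0.71 (SE 0.0915, adjusted p = 1.4e-05). Both limma calls were lost with scaled ratios, at -1.21 (adjusted p = 0.075) and -0.23 (adjusted p = 0.75). That setting does not equalize the spread of the arrays, so these losses do not show that the calls depend on array spread. P4ha1, which hydroxylates prolines of new collagen, did not pass the F test (adjusted p = 0.39), with source means within 0.11 of each other. Ankrd37 had no value.

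**Figure D3:**
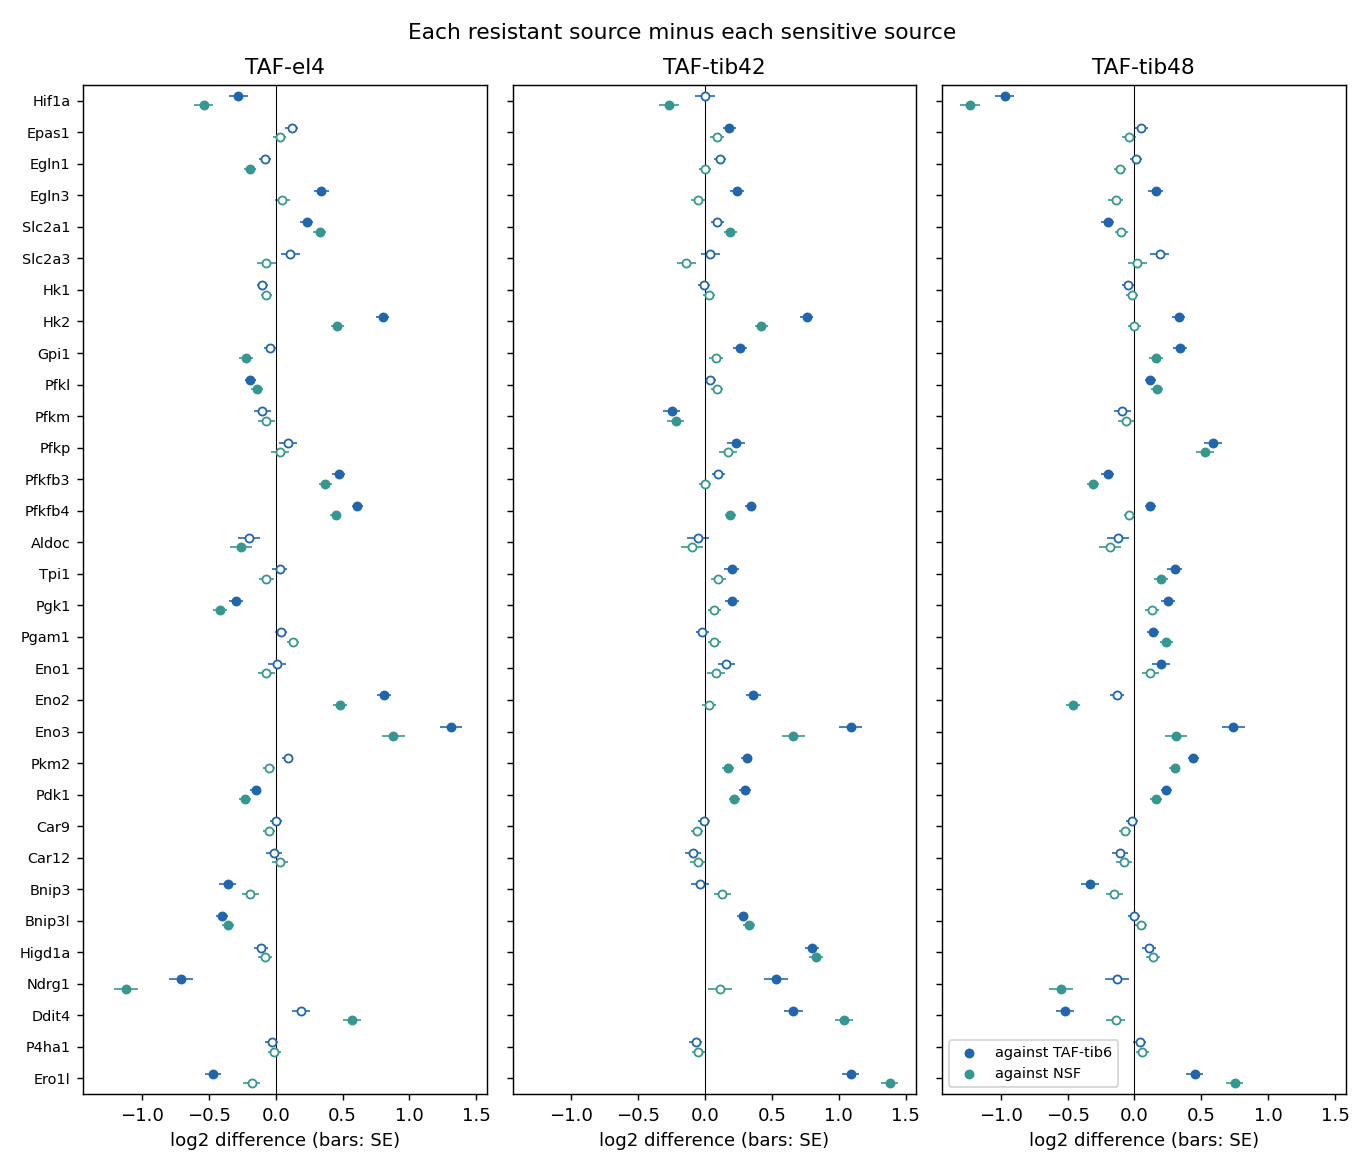
Log2 difference of each resistant source (panels) from TAF-tib6 (blue) and NSF (green) on the x axis, with SE bars, for the 32 genes whose probe was not saturated (rows); filled points passed an adjusted p of 0.05. Eno3 is right of 0 in all 3 panels, whereas Hif1a, Ndrg1, Ero1l, Ddit4 and Pfkfb3 change side or size between panels.

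In each of the 10 pairs of sources, the share of members called was above the share of all genes called. All genes tested were not matched to the members for brightness, and all 34 members were well above background on every array. TAF-el4 against TAF-tib6 had 15 of 34 called (44.1%), against 20.6% of all 31162 genes, 7 higher and 8 lower (11.4% higher and 9.22% lower over all genes). The split was 7 and 5 with median centring and 9 and 5 with scaled ratios. With slide run as a block 7 were called, and the calls of Pgk1, Slc2a1, Bnip3, Ero1l, Hif1a, Pfkl, Pdk1 and Egln3 were lost. These 2 sources shared no slide run, so the block compares them only through other sources and with less precision. Some lost calls kept their size, as Pgk1 did (-0.30 without and -0.32 with the block, block SE 0.0914). Egln3 did not (0.34 and 0.07). TAF-el4 against NSF had 16 (47.1%), against 17.3% of all 31162 genes, 7 higher and 9 lower (8.8% higher and 8.55% lower over all genes). Here the split was 6 and 5 with scaled ratios and 7 and 4 in the Cy5 channel alone. Within the first slide run, which holds 2 TAF-el4 and 3 NSF arrays, Eno3 differed by 0.83, Ndrg1 by -1.03, Hif1a by -0.47 and Hk2 by 0.42.

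TAF-tib42 had mostly higher calls. Against TAF-tib6, 18 were called (52.9%), against 24.9% of all 31162 genes, 17 higher and 1 lower (11.8% higher and 13.1% lower over all genes). The 1 lower gene was Pfkm. Under the slide run block 13 were called, and the calls of Gpi1, Tpi1, Pdk1, Pfkp, Egln3 and Pfkm were lost. The 13 include Ldha, called by limma only with the block (0.72, adjusted p = 0.042), on its saturated probe, which gives no usable difference. Against NSF, 13 were called (38.2%), against 23.9% of all 31162 genes, 11 higher and 2 lower (10.8% higher and 13.2% lower over all genes), Hif1a and Pfkm being the lower ones. Ldha was among the 11 higher ones on its saturated probe, which gives no usable difference. The split was 6 and 4 with median centring. Under the slide run block 6 remained called, all of them higher, and the calls of Hif1a, Pfkm, Eno3, Ldha, Slc2a1, Pkm2 and Pdk1 were lost. TAF-tib42 shared no slide run with either sensitive source.

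TAF-tib48 had 19 of 34 called against TAF-tib6 (55.9%), against 24.7% of all 31162 genes, 14 higher and 5 lower (11.5% higher and 13.2% lower over all genes). The Cy5 channel alone gave 12 and 2. Within the third slide run, with 2 TAF-tib48 and 3 TAF-tib6 arrays, Hif1a differed by -0.96, Pfkp by 0.63, Eno3 by 0.79, Pkm2 by 0.46 and Ddit4 by -0.48. The Pfkp value is from its brightest probe, and over all arrays a dimmer probe did not carry the difference, as given above. Against NSF, 14 were called (41.2%), against 26.1% of all 31162 genes, 10 higher and 4 lower (11.7% higher and 14.5% lower over all genes). This split turned round with median centring, to 2 higher and 9 lower, and was 3 and 2 with scaled ratios. Among the 10 higher ones was Ldha, on its saturated probe without a usable difference. The block on slide run left 4 called, and the calls of Ldha, Gpi1, Pgam1, Tpi1, Pkm2, Pfkl, Ndrg1, Pfkfb3, Pdk1 and Eno3 were lost. TAF-tib48 and NSF shared no slide run, so this block too compares them only through other sources.

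The 2 sensitive sources also differed from each other. TAF-tib6 against NSF had 11 called (32.4%), against 11.3% of all 31162 genes, 2 higher and 9 lower (4.62% higher and 6.67% lower over all genes). Ddit4 (0.38) and Ero1l (0.29) were the higher ones; Eno3 (-0.43), Ndrg1 (-0.42), Hk2 (-0.33), Eno2 (-0.33) and Egln3 (-0.30) were among the lower ones. The split was 0 and 14 with median centring and 0 and 6 with scaled ratios. Only 1, Hk2, was called with slide run as a block, and 7 without NSF replicate 1, NSF replicate 2 or TAF-tib6 replicate 1. These 2 sources shared no slide run.

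The resistant sources also differed from each other. TAF-el4 against TAF-tib42 had 18 called (52.9%), against 23.1% of all 31162 genes, 4 higher and 14 lower (13.4% higher and 9.69% lower over all genes), with Ero1l at -1.56 (SE 0.062, adjusted p = 1.5e-12), Ndrg1 at -1.24 (SE 0.0915, adjusted p = 8.3e-09) and Higd1a at -0.92 (SE 0.0535, adjusted p = 3.1e-10). The Higd1a value is from its brightest probe, and its second probe was not called, as given above. The split was 5 and 8 with median centring, 1 and 10 with scaled ratios and 1 and 12 in Cy5 alone. TAF-el4 against TAF-tib48 had 20 called (58.8%), against 23.8% of all 31162 genes, 9 higher and 11 lower (14.1% higher and 9.69% lower over all genes), with Eno2 at 0.94 (SE 0.055, adjusted p = 5e-10), Pfkfb3 at 0.68 (SE 0.0473, adjusted p = 5.2e-09) and Pgk1 at -0.55 (SE 0.0516, adjusted p = 2.4e-07). Pfkfb3 is given on its brightest probe, and its dimmer probes did not carry its pattern over the sources, as given above. TAF-tib42 against TAF-tib48 had 16 called (47.1%), against 14.3% of all 31162 genes, 13 higher and 3 lower (6.64% higher and 7.65% lower over all genes), with Ddit4 at 1.18 (SE 0.0698, adjusted p = 6.6e-10) and Hif1a at 0.96 (SE 0.0725, adjusted p = 1.6e-08). The split was 11 and 1 with median centring and 12 and 1 in Cy5 alone. The 10 comparisons share sources, so their counts are not independent.

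**Figure D4:**
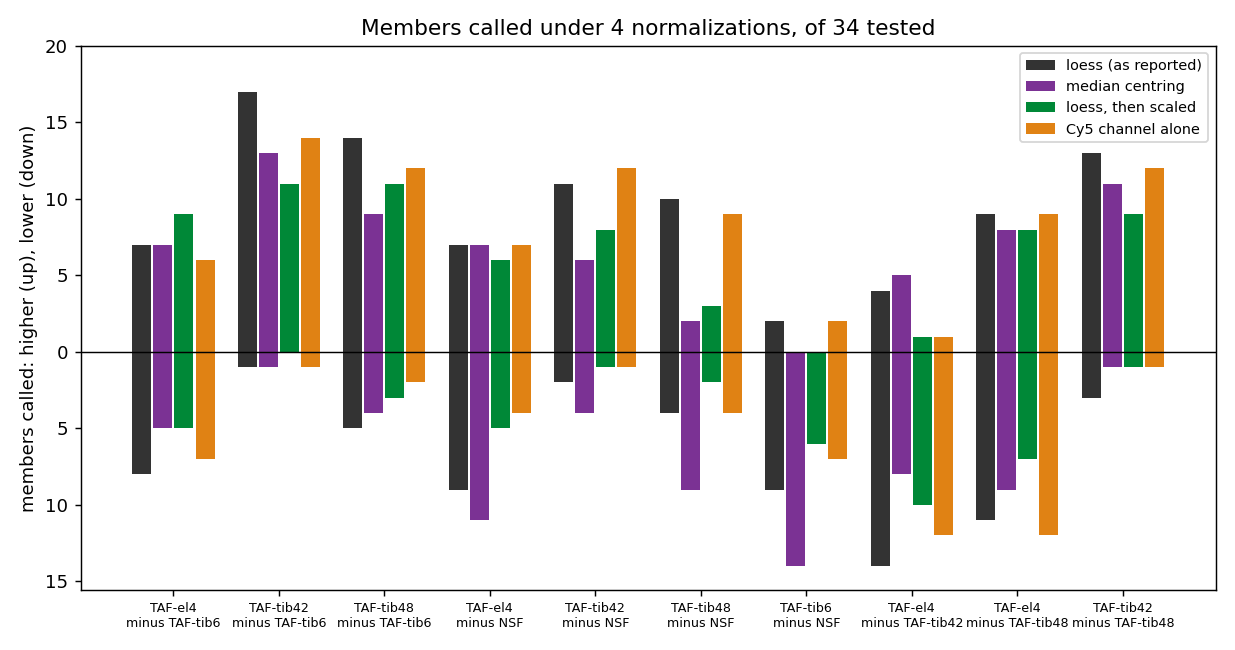
Number of the 34 members called higher (bars up) and lower (bars down) in each of the 10 pairs of sources (x axis), under the loess normalization used in the text and 3 others. TAF-tib42 minus TAF-tib6 keeps mostly higher calls under all 4, whereas TAF-tib48 minus NSF has 10 higher and 4 lower with loess and 2 higher and 9 lower with median centring.

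Beyond the 36, other HIF targets did not all move one way. For the list counts in this and the following paragraphs, the shares of all genes called are the background. They were 20.6%, 24.9% and 24.7% in TAF-el4, TAF-tib42 and TAF-tib48 against TAF-tib6, and 17.3%, 23.9% and 26.1% against NSF. Several list counts lie near these shares, such as 4 of 17 citric acid cycle genes in TAF-el4 against NSF. Of 32 further targets 31 were tested, with 10 higher and 7 lower in TAF-el4 against TAF-tib6, 12 and 10 in TAF-tib42 and 4 and 17 in TAF-tib48. The vasodilator Adm differed from TAF-tib6 by -1.07, -0.71 and -1.23 in these 3 sources, and was called lower in each. Angptl4, a lipase inhibitor, was lower in TAF-tib42, at -1.35 (SE 0.0792, adjusted p = 3.8e-10), and in TAF-tib48, at -1.29 (SE 0.0792, adjusted p = 8.6e-10), and the collagen cross-linking enzyme Lox was lower in TAF-tib48, at -1.31 (SE 0.0743, adjusted p = 3.2e-10). Against NSF the further targets had 6 higher and 8 lower in TAF-el4, 11 and 10 in TAF-tib42 and 3 and 15 in TAF-tib48.

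Of 10 other oxygen-sensing genes, 0 were higher and 1 lower in TAF-el4 against TAF-tib6, 3 and 1 in TAF-tib42 and 3 and 1 in TAF-tib48. Against NSF the counts were 0 and 1, 1 and 2, and 2 and 2. Os9 was lower in all 3 (-0.37, -0.18 and -0.28). Egln2, a further HIF prolyl hydroxylase, was higher in TAF-tib42 (0.28) and TAF-tib48 (0.36). Of 18 other glycolytic isoenzymes and glucose transporters, 3 were higher and 2 lower in TAF-el4, 2 and 1 in TAF-tib42 and 3 and 0 in TAF-tib48, against TAF-tib6, and 2 and 1, 3 and 1, and 5 and 1 against NSF. Ldhb, the heart-type lactate dehydrogenase, was lower in TAF-el4 (-0.43) and TAF-tib42 (-0.50), and the ADP-dependent glucokinase Adpgk was higher in TAF-el4 (0.60).

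Downstream of pyruvate, of 10 genes for its entry to mitochondria 2 were higher and 3 lower in TAF-el4 against TAF-tib6, 2 and 1 in TAF-tib42 and 4 and 0 in TAF-tib48. Against NSF the counts were 2 and 2, 2 and 1, and 5 and 0. Pdk4, a kinase of pyruvate dehydrogenase like Pdk1, was lower in TAF-tib42, at -0.92 (SE 0.0555, adjusted p = 5.5e-10), and higher in TAF-tib48, at 0.33 (SE 0.0555, adjusted p = 0.00021). Pdha1, a subunit of the dehydrogenase, was higher in all 3 (0.33, 0.60 and 0.43). Of 17 citric acid cycle genes, 5 were higher and 0 lower in TAF-el4, 5 and 1 in TAF-tib42 and 8 and 0 in TAF-tib48 against TAF-tib6, with Idh3a, a subunit of isocitrate dehydrogenase, at 0.37, 0.35 and 0.36. Against NSF, 4 were higher and 0 lower in TAF-el4, 4 and 4 in TAF-tib42 and 7 and 0 in TAF-tib48. Of 11 genes of the pentose phosphate and serine branches, 6, 7 and 7 were higher in TAF-el4, TAF-tib42 and TAF-tib48 and 0 lower in each against TAF-tib6, and 4, 6 and 5 were higher and 0 lower against NSF. The TAF-tib6 differences were, for Phgdh, the first enzyme of serine synthesis, 0.80, 0.53 and 0.80.

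Of 8 genes for lactate transport and pH, 1 was higher and 3 lower in TAF-el4 against TAF-tib6, and 0 were higher and 3 lower in each of TAF-tib42 and TAF-tib48. Against NSF the counts were 1 and 3 in TAF-el4, 1 and 2 in TAF-tib42 and 0 and 3 in TAF-tib48. The transporter Slc16a1 was lower than in TAF-tib6 in all 3 (-0.74, -0.64 and -1.04). Of 7 mitophagy and lysosome genes, 0 were higher and 3 lower in TAF-el4, and 2 higher and 3 lower in each of the other 2, with the mitophagy kinase Pink1 lower in all (-1.0, -0.64 and -0.33). Against NSF these counts were 0 and 3, 1 and 3, and 2 and 2. Of 13 proliferation genes, 13, 11 and 7 were higher in TAF-el4, TAF-tib42 and TAF-tib48 and 0 lower, with medians of 0.86, 0.40 and 0.29. Against NSF 13, 4 and 6 were higher and 0 lower. In TAF-el4 Hk2, Eno2, Eno3, Pfkfb4 and, on its brightest probe, Pfkfb3 were high, and Pgk1 and Bnip3l low. The mean of Hk2 was 0.44 in TAF-el4, where 13 proliferation genes were higher than in TAF-tib6 and 13 higher than in NSF. It was 0.40 in TAF-tib42, where 11 were higher than in TAF-tib6 and 4 higher than in NSF. The part of the proliferation genes in those differences was not tested. Of 12 genes of endoplasmic reticulum stress and amino acid response, 1 was higher and 6 lower in TAF-el4 against TAF-tib6 and 6 higher and 0 lower in each of TAF-tib42 and TAF-tib48, where Ero1l was high; Trib3 differed by -0.33, 0.50 and 0.55. Against NSF, 0 were higher and 6 lower in TAF-el4, 3 and 1 in TAF-tib42 and 5 and 1 in TAF-tib48. None of these 10 lists had a gene called between resistant and sensitive sources in the test over source means.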

How the data were processed

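RNA of 15 samples was measured on Agilent 2-colour arrays, 1 sample an array, after amplification with Agilent's low input kit. The deposited spot intensities of both dyes and the log10 ratio of Cy5 over Cy3, dye-normalized by LOWESS, come from Agilent Feature Extraction 8.5.1.1, per the file headers and the submitters' processing notes; a protocol label names 9.5. The authors' deposited log2 table, for which no source used here states the processing, equalled the scanner's ratio on the log2 scale (slope and correlation 1 on every array), with array medians of 0.0338 to 0.0511. Per the labels Cy5 held the fibroblast RNA on every array, so dye and source cannot be told apart within 1 array, but a dye effect common to all arrays cancels between sources.

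Mean spot signals were background-corrected (normexp, offset 50) and loess-normalized in limma 3.58.1 (R 4.3.3). Genes took their brightest Cy5 probe. Of 33442 names, 31162 genes were tested, those whose probe was well above background in Cy5 on all 3 arrays of at least 1 source. Sources were compared with moderated tests of limma on the 15 arrays, and resistant with sensitive on 5 source means. P-values were Benjamini-Hochberg adjusted over all genes tested, with calls at 0.05. The slide run is the order of slide numbers in the files, not a stated batch. Replicate numbers did not pair the arrays: 2 of 30 same-number pairs of arrays had a correlation of deviations over 0.1 (range -0.193 to 0.168). The fits were tested on simulated data with 50 genes changed at each fold. TAF-el4 minus TAF-tib6 called 76% of them at 1.2-fold and 96% at 1.5-fold. Resistant minus sensitive called 0% at 1.2-fold, 48% at 1.5-fold and 92% at 2-fold. The changed genes were drawn from all genes, whose median spread of source means was 0.16, against 0.41 for the members. The resistant minus sensitive shares therefore do not tell how often a change in a member would be called. There were 0 other columns of per-sample values.

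The members and the gene lists were chosen with earlier results of these data known. Every array value was given for members with all resistant means on 1 side of both sensitive means, and for up to 5 higher and 5 lower called genes a pair whose arrays did not overlap, except on the saturated probes of Aldoa and Ldha; of each further list, up to 4 called genes a comparison with the largest differences could be named. Some other members were given in full to describe their role. Promoters (RefSeq, GRCm38.p6) were searched for ACGTG and GCGTG on both strands. Alternatives covered the ratio, background, normalization, filter, saturated spots, probe choice, left-out arrays and sources, slide run and replicate blocks. Leaving out Aldoa and Ldha was chosen after seeing the data.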

Additional observations from a re-analysis of the deposited data

How the results depend on the processing

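Member counts that moved by over 1.5 times did so under these settings. With scaled log ratios, TAF-tib42 minus TAF-tib6 had 11 members called, TAF-tib48 minus NSF 5, TAF-tib6 minus NSF 6, TAF-el4 minus TAF-tib42 11 and TAF-tib42 minus TAF-tib48 10. This scaling divided each array by a factor from its median log ratio, which loess sets near 0. It did not equalize the spread of the arrays, so these counts do not test a difference in spread. Factors from the median absolute log ratio, which were not used, ran from 0.944 to 1.09. With slide run as a block, TAF-el4 minus TAF-tib6 had 7, TAF-tib42 minus NSF 6, TAF-tib48 minus NSF 4 and TAF-tib6 minus NSF 1. Resistant minus sensitive had 2 with the source as a random block. In the Cy5 channel alone Ldha turned to -0.04 for resistant minus sensitive and -0.09 for TAF-tib42 minus NSF, Pfkfb3 to 0.18 for TAF-tib48 minus NSF and Slc2a1 to -0.04 for TAF-el4 minus TAF-tib42; Egln3 was 0.01 for TAF-tib6 minus NSF with slide run as a block. The cause was not tested. Without 1 array, counts ran from 0 to 0 for resistant minus sensitive, 23 to 27 for the F test, and 14 to 18, 16 to 18 and 14 to 19 for TAF-el4, TAF-tib42 and TAF-tib48 against TAF-tib6. Against NSF they ran from 14 to 19, 11 to 13 and 12 to 15, and for TAF-tib6 from 7 to 12. Between resistant sources they ran from 15 to 19 (TAF-el4 minus TAF-tib42), 19 to 21 (TAF-el4 minus TAF-tib48) and 14 to 16. Over 93 single differences and their alternatives, 2674 values were computed: 2539 stayed on their side of the threshold, 129 lost it, 1 gained it and 5 changed sign. Leaving out Aldoa and Ldha refitted nothing, so its 90 values could not change. The scanner's ratio and the authors' table hold the same ratios, and each gave 89 unchanged and 4 lost. Resistant minus sensitive differences were uncalled at the start and counted as unchanged while they stayed so. The total is therefore not a measure of robustness. The replicate block, whose numbers did not pair the arrays, gave 25 members by the F test, 15 for TAF-el4 minus TAF-tib6 and 10 for TAF-tib6 minus NSF. The same block lost 1 named call, Slc2a1 in TAF-el4 minus TAF-tib42 (0.14, limma's adjusted p = 0.065). Of 15 arrays, 2 correlated best with their own number. Saturation leaves Aldoa and the brighter Ldha probe without a usable difference.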
